A study of Mus musculus with 8 samples.

Results

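The adult hemoglobin genes *Hba-a1*, *Hba-a2*, *Hbb-bs* and *Hbb-bt* and the erythroid heme gene *Alas2* were followed in the kidneys of diabetic mice treated with rFGF4 or vehicle. They are 5 of the 55401 genes of the deposited table, were taken from it by gene symbol, and all 5 were among the 15150 genes that passed the filter on low values. Their lower level in rFGF4-treated kidneys is the reason they were chosen, so the difference between the groups is described here and was not tested. Kidney RNA was sequenced with 1 library per mouse, 4 mice per group. The rFGF4 group (mice 1, 2, 3 and 5) had received a modified, non-mitogenic recombinant human FGF4, and the vehicle group (mice 2, 3, 4 and 5) PBS. The sample labels name *db*/*db* mice, which lack a working leptin receptor and carry type 2 diabetes, whereas the paper describes male mice made diabetic with streptozotocin, so the model shared by both groups cannot be named with certainty. For both models the described dose was 1 mg/kg of rFGF4 every other day for 8 weeks, by intraperitoneal injection from 12 weeks of age in *db*/*db* mice, while the accounts of the streptozotocin schedule differ in the age of the mice. Each group is a single treatment arm at a single time point, with no non-diabetic kidneys among these libraries. The paper describes cardiac perfusion with PBS for the kidneys used in its in situ hybridization, and does not say whether the sequenced kidneys were perfused.

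Hemoglobin carries oxygen as a tetramer of alpha and beta globin chains, each holding a heme. In adult mice the alpha chains are made from *Hba-a1* and *Hba-a2* and the beta chains from the paired genes of the beta cluster, here *Hbb-bs* and *Hbb-bt*, while *Alas2* makes the enzyme of the first step of heme synthesis in red cell precursors. Circulating reticulocytes and red cells still carry globin mRNA, so whole-organ RNA contains it wherever blood is present, and in such bulk RNA fewer cells of a type and less RNA per cell cannot be told apart.

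*Hba-a1* (ENSMUSG00000069919) lies on chromosome 11 at 32283672-32284486 and *Hba-a2* (ENSMUSG00000069917) 12820 bases further on at 32296492-32297310, both on the plus strand of GRCm38. *Hbb-bs* (ENSMUSG00000052305) lies on chromosome 7 at 103826523-103827928 and *Hbb-bt* (ENSMUSG00000073940) at 103812524-103813923, both on the minus strand. *Alas2* (ENSMUSG00000025270) lies on the X chromosome at 150547417-150570622, on the plus strand. The 5 genes thus sit at 3 separate loci. The 250 bases before each start site are shown as a description, and their part in the variation between mice was not tested. The sequences are from RefSeq on GRCm38.p6, written 5′ to 3′ along the gene, and capitals mark matches on either strand to 4 motifs, which are the CCAAT box, the TATA box (read as ATATAA), the CACC box (read as CACCC) and the core bound by GATA factors (read as GATAA).
Hba-a1, chr11:32283422-32283671: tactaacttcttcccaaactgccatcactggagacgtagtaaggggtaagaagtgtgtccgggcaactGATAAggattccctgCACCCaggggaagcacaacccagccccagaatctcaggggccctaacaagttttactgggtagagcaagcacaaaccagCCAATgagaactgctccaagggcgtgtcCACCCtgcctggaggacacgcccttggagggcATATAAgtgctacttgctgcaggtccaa
Hbb-bs, chr7:103827929-103828178: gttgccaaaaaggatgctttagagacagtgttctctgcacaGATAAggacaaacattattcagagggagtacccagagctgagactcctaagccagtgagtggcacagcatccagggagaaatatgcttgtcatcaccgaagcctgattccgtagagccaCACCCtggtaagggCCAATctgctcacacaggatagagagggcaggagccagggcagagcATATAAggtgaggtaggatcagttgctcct
Hbb-bt, chr7:103813924-103814173: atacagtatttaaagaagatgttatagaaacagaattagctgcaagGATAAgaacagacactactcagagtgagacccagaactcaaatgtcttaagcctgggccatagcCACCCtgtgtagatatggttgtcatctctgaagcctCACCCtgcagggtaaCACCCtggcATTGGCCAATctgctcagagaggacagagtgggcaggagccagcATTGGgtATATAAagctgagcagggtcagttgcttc
Alas2, chrX:150547167-150547416: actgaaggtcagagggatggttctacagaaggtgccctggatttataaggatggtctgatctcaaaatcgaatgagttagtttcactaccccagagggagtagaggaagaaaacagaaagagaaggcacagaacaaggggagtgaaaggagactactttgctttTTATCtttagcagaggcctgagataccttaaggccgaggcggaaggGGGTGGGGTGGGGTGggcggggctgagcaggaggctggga

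The window of *Hba-a2* shares 247 bases with that of *Hba-a1*, shifted by 3 bases, and is not printed. All 4 globin windows held each of the 4 motifs, which 0.466% of 32851 mouse promoter windows of this length did. Singly the motifs are common, since the CCAAT box was found in 33.8% of the windows, the TATA box in 9.1%, the CACC box in 52% and the GATA core in 22.6%. The TATA match lay 28 bases before the start of *Hba-a1*, 31 before *Hba-a2*, 30 before *Hbb-bs* and 29 before *Hbb-bt*. *Hbb-bt* had 3 matches to the CCAAT box and 3 to the CACC box, against 1 of each in *Hbb-bs*. *Alas2* had no match to the CCAAT box or the TATA box in this window, but 3 matches to the CACC box in a row and 1 to the GATA core, all on the opposite strand. A match to these short words is a description of the sequence only. The share of windows with all 4 motifs is no test, since the windows of *Hba-a1* and *Hba-a2* are nearly the same sequence.

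The reads of each pair of sister genes are hard to assign. The coding sequences of *Hba-a1* and *Hba-a2* differed at 1 of 429 bases and those of *Hbb-bs* and *Hbb-bt* at 1 of 444. Of all stretches of 100 bases in the transcript of *Hba-a1*, 56.5% also occur in that of *Hba-a2*, and 62.6% of those of *Hbb-bs* occur in *Hbb-bt*. The split between sister genes is therefore uncertain. The sister transcripts also differ in length (699 and 554 bases for *Hba-a1* and *Hba-a2*, 628 and 703 for *Hbb-bs* and *Hbb-bt*), so FPKM summed over both sisters shift with the split too.

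All values are FPKM, fragments counted on a gene relative to its exon length in kilobases and to the mapped fragments of the library. Levels can thus be compared between genes, except where sister genes share reads. *Hba-a1* was at 32.7, 401, 116 and 714 FPKM in rFGF4-treated mice 1, 2, 3 and 5 and at 1045, 1117, 731 and 315 FPKM in vehicle-treated mice 2, 3, 4 and 5. Mice 1 and 3 of the rFGF4 group lay below every vehicle-treated mouse, but mice 2 and 5 lay above vehicle-treated mouse 5, so the groups overlapped. The means were 316 ± 309 (SD, n = 4) and 802 ± 365 FPKM (SD, n = 4), a ratio of 0.394.

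*Hba-a2*, the second alpha globin gene, was at 35.3, 455, 132 and 811 FPKM in the rFGF4 group and at 1194, 1244, 811 and 346 FPKM in the vehicle group. Its means were 358 ± 351 and 898 ± 416 FPKM (SD, n = 4 each), a ratio of 0.399. The groups overlapped in the same way, with rFGF4-treated mouse 5 level with vehicle-treated mouse 4.

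*Hbb-bs*, one of the adult beta globin genes, was at 38.0, 487, 131 and 779 FPKM in the rFGF4 group and at 1083, 1320, 790 and 334 FPKM in the vehicle group. Its sister *Hbb-bt* was at 14.1, 207, 55.8 and 344 FPKM in the rFGF4 group and at 461, 627, 361 and 141 FPKM in the vehicle group. For both beta genes, 3 vehicle-treated mice lay above all rFGF4-treated mice and vehicle-treated mouse 5 lay below 2 of them. The means were 359 ± 340 and 882 ± 425 FPKM for *Hbb-bs* (ratio 0.407) and 155 ± 151 and 398 ± 203 FPKM for *Hbb-bt* (ratio 0.390; SD, n = 4 each).

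*Alas2* was far less abundant, at 0.327, 5.98, 1.67 and 8.86 FPKM in the rFGF4 group and at 10.5, 17.1, 7.99 and 2.95 FPKM in the vehicle group. The lowest mouse was again rFGF4-treated mouse 1 and the highest vehicle-treated mouse 3, and the groups overlapped. The means were 4.21 ± 3.93 and 9.65 ± 5.89 FPKM (SD, n = 4 each), a ratio of 0.436.

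**Figure D1:**
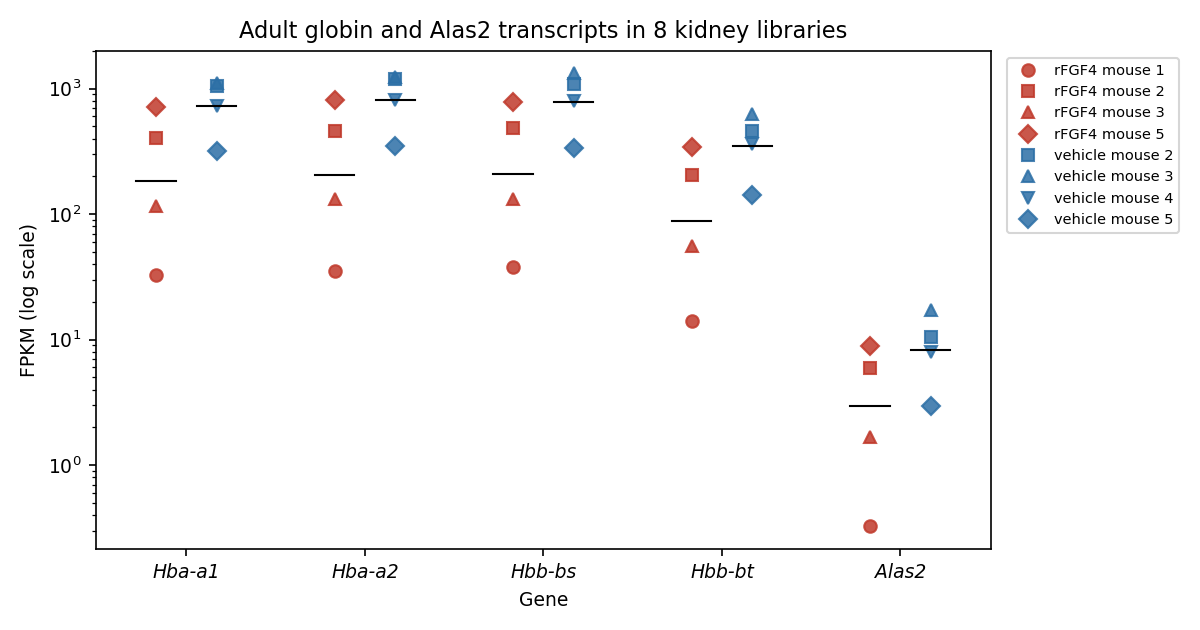
Level of each gene in each mouse, in FPKM on a log axis, with rFGF4-treated mice in red, vehicle-treated mice in blue and a marker shape per mouse number; black bars are group means taken on the log2(FPKM + 1) scale. For *Hba-a1* the points run from 32.7 to 714 FPKM under rFGF4 and from 315 to 1117 FPKM under vehicle, and the same mice are high or low for all 5 genes.

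On the log2(FPKM + 1) scale the difference, rFGF4 minus vehicle, was -1.97 ± 0.91 for *Hba-a1*, -1.97 ± 0.93 for *Hba-a2*, -1.90 ± 0.92 for *Hbb-bs*, -1.98 ± 0.95 for *Hbb-bt* and -1.23 ± 0.69 for *Alas2* (SE from limma). This scale understates changes of genes as low as *Alas2*. The median difference of all tested genes was 0.09, and only 4 genes outside this set had a difference as low as that of *Hbb-bs*. The differences were large and so were their errors, since the SE of *Hba-a1* was exceeded by that of 235 of the 15150 genes (1.55%), where the median SE was 0.189.

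The threshold used in the study, applied here to limma, asks for an unadjusted p below 0.05 together with a rise to 1.5-fold or more or a fall to 0.67 or less, and 0 of the 5 genes were called by it. Across all tested genes limma called 232 (1.53%), with 165 higher and 67 lower in rFGF4-treated kidneys, the lower calls making up 0.442%. With each library scaled to a common median ratio there were 93 higher and 83 lower calls, so the balance of directions across all genes depended on the scaling. Of the 5 genes 0 had groups that did not overlap, against 504 (3.33%) of all tested genes. No tested gene passed an adjusted p of 0.05 in limma (smallest adjusted p 0.918), while 700 had an unadjusted p under 0.05. The mice are the only replicates, and the errors and p-values cover the spread between them.

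Since the genes were chosen on this contrast, their count is a description and no test of them, and it depended on single mice. It was 5 without rFGF4-treated mouse 5, the highest of its group, where 580 of all 15150 tested genes were called. Without vehicle-treated mouse 5, the lowest of its group, it was 5, beside 434 of all tested genes. Without rFGF4-treated mouse 2 it was 3 (*Hba-a1*, *Hbb-bs* and *Hbb-bt*), beside 188 of all tested genes. It was 0 without any other mouse, beside 202 to 234 of all tested genes. Leaving out a mouse that lies towards the other group widens the difference by construction, so nothing is read from these counts. The log2 difference of *Hba-a1* ran from -2.63 without rFGF4-treated mouse 5 to -1.16 without rFGF4-treated mouse 1. That of *Alas2* ran from -1.67 to -0.71 when single mice were left out. No left-out mouse turned the sign of any of the 5 genes.

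The 5 genes varied widely within the rFGF4 group and less within the vehicle group. Between the lowest and the highest rFGF4-treated mouse, *Hba-a1* varied 21.9-fold and *Alas2* 27.1-fold. Between vehicle-treated mice the same genes varied 3.54-fold and 5.80-fold. Over all 8 mice the ratio of highest to lowest was 34.2 for *Hba-a1*, 35.3 for *Hba-a2*, 34.8 for *Hbb-bs*, 44.6 for *Hbb-bt* and 52.4 for *Alas2*. The SD of log2(FPKM + 1) was 1.95 to 2.02 for the 4 globins under rFGF4 and 0.84 to 0.93 under vehicle, a difference in spread that was not tested.

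The order of the mice was almost the same for every gene. From highest to lowest it was vehicle-treated mice 3, 2 and 4, rFGF4-treated mice 5 and 2, vehicle-treated mouse 5 and rFGF4-treated mice 3 and 1 for *Hba-a1*, *Hbb-bs* and *Hbb-bt*. *Hba-a2* and *Alas2* differed from this order only in that rFGF4-treated mouse 5 stood just above vehicle-treated mouse 4. Pearson's r of log2(FPKM + 1) over the 8 mice was at least 0.998 between any pair of globin genes and 0.976 to 0.984 between *Alas2* and each globin gene. These values describe 8 libraries that differ in treatment and scaling, and the sister genes share reads as well.

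The 4 globin genes together gave 120 to 2648 FPKM in rFGF4-treated kidneys (median 992) and 1136 to 4308 FPKM in vehicle-treated kidneys (median 3237). As a share of all FPKM in a library this was 0.245% ± 0.221 and 0.553% ± 0.245 (SD, n = 4 each). By level, *Hba-a2* was above *Hba-a1* in 8 of 8 mice, *Hbb-bs* above *Hba-a1* in 8 of 8 and *Hba-a1* above *Hbb-bt* in 8 of 8. *Hba-a2* and *Hbb-bs* were not ordered, with *Hba-a2* higher in 5 of 8 mice. Orders among the globin genes depend on how shared reads were split and on transcript length.

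Ratios taken within a library cancel a change that its globin genes share in proportion. They ask whether the make-up of that RNA differed between treatments, and can still shift where levels are low. The ratio of alpha globin (*Hba-a1* plus *Hba-a2*) to beta globin (*Hbb-bs* plus *Hbb-bt*) was 1.31, 1.23, 1.33 and 1.36 in rFGF4-treated mice 1, 2, 3 and 5 and 1.45, 1.21, 1.34 and 1.39 in vehicle-treated mice 2, 3, 4 and 5. The groups overlapped throughout. The means were 1.31 ± 0.0531 and 1.35 ± 0.102 (SD, n = 4 each), and their difference lay within the SD of either group (exact permutation test on log2 ratios, two-sided, p = 0.514; adjusted over the 4 ratios 0.686).

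*Alas2* per 1000 FPKM of globin was 2.81, 3.87, 3.85 and 3.35 under rFGF4 and 2.79, 3.97, 2.97 and 2.61 under vehicle. The lowest and the highest mouse were both vehicle-treated. The means were 3.47 ± 0.503 and 3.09 ± 0.610 (SD, n = 4 each; exact permutation p = 0.371, adjusted 0.686). This value depended on the pseudocount, since the log2 difference of 0.18 became 0.73 with 1 FPKM added in place of 0.01 (exact permutation p = 0.0571, adjusted 0.229), and *Alas2* was at 0.327 FPKM in the lowest mouse.

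The ratio of *Hba-a1* to *Hba-a2* was 0.892 ± 0.0236 in rFGF4-treated and 0.897 ± 0.0156 in vehicle-treated mice (SD, n = 4 each; exact permutation p = 0.743, adjusted 0.743). The ratio of *Hbb-bs* to *Hbb-bt* was 2.41 ± 0.192 and 2.25 ± 0.126 (SD, n = 4 each; exact permutation p = 0.257, adjusted 0.686). Both sister ratios were highest in rFGF4-treated mouse 1 (0.927 and 2.70), which held the least globin RNA. These sister ratios depend on how shared reads were split, and through transcript length the alpha to beta ratio does in part. With 4 mice against 4 the smallest exact p is 0.0286. Between the highest and the lowest of all 8 mice the alpha to beta ratio varied 1.20-fold, the alpha sister ratio 1.06-fold, the beta sister ratio 1.28-fold and *Alas2* per globin 1.52-fold, where the genes themselves varied at least 34.2-fold.

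**Figure D2:**
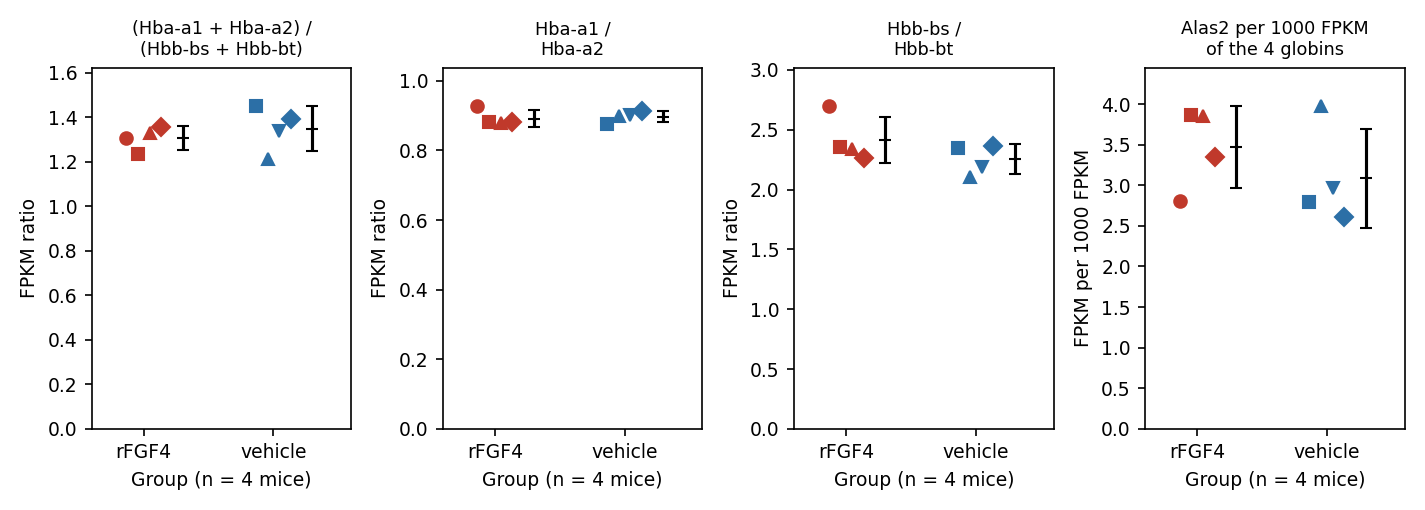
The 4 ratios within each library, on linear axes from 0, with rFGF4-treated mice in red, vehicle-treated mice in blue, a marker shape per mouse number and black mean ± SD (n = 4). The groups overlap in every panel; alpha to beta globin lies between 1.21 and 1.45 in all 8 mice.

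The remaining globin genes were close to undetected. Of 12 embryonic, fetal and other globins, 10 had a row in the table, 8 never reached 0.5 FPKM, and the embryonic genes *Hba-x*, *Hbb-bh0*, *Hbb-bh1* and *Hbb-bh2* were listed at 0 in all 8 libraries. Only *Cygb*, a globin of fibroblasts and other stromal cells, was tested, at 10.9 ± 10.1 and 8.23 ± 10.8 FPKM (SD, n = 4 each; log2 difference 0.60 ± 0.78 SE). It was highest in rFGF4-treated mouse 1, where the adult globins were lowest.

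The remaining genes of heme synthesis did not pass the threshold either. Of 8 tested genes of the pathway 0 were called, 6 had a log2 difference above 0 and 2 below 0, and the median was 0.13 against 0.09 for all tested genes. *Fech*, which inserts iron into protoporphyrin to form heme, differed by 0.30 ± 0.18 SE, and *Alas1*, the housekeeping counterpart of *Alas2*, by 0.24 ± 0.38 SE.

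Transport of heme and iron at the mitochondrion, a list of 10 tested genes, had 0 calls and a median of -0.01. The heme exporter *Flvcr1* differed by -0.56 ± 0.51 SE and the iron importer *Slc25a37* by 0.17 ± 0.13 SE. Neither passed the threshold.

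Other red cell genes were mostly low. Of 18 red cell membrane genes 5 were tested, 11 never reached 0.5 FPKM and *Rhag* was listed at 0 in all libraries. The anion exchanger *Slc4a1*, which is also made by collecting duct cells of the kidney, was at 3.13, 4.17, 3.77 and 9.75 FPKM under rFGF4 and at 10.4, 5.67, 7.64 and 5.24 FPKM under vehicle. Its groups overlapped, at a log2 difference of -0.48 ± 0.33 SE.

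In the same list, *Dmtn*, which bundles actin in the red cell skeleton, went the other way, at 0.38 ± 0.15 SE (limma, unadjusted p = 0.0391, adjusted p = 0.918). *Gypc*, a glycophorin, differed by -0.20 ± 0.31 SE. The list had 0 calls and a median of 0.11.

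Among 13 red cell enzymes and maturation genes, of which 8 were tested, 0 were called and the median was 0.00. *Tent5c* differed by -0.47 ± 0.35 SE and *Bpgm*, which makes the 2,3-bisphosphoglycerate of red cells, by 0.15 ± 0.14 SE.

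Of 10 transcription factors of erythroid precursors, 4 were tested, 5 never reached 0.5 FPKM and 0 were called, with a median of -0.05, and *Gata1*, the factor that defines the lineage, was listed at 0 in 7 of the 8 libraries. *Klf1*, the activator of adult beta globin, was at 1.34 ± 1.04 and 1.55 ± 0.702 FPKM (SD, n = 4 each) and differed by -0.18 ± 0.33 SE. *Zfpm1* differed by -0.17 ± 0.16 SE and *Lmo2*, which endothelial cells also make, by 0.08 ± 0.45 SE.

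Genes listed as neighbours of the alpha globin and *Alas2* loci, with none from beside the beta globin cluster, were read in the same way. Of 9 listed genes 6 were tested and 0 were called, with a median of 0.14. *Luc7l*, 1 of the tested genes, lies on another chromosome in the mouse. *Rhbdf1* and *Mpg*, both near the alpha globin cluster, differed by 0.40 ± 0.23 SE and 0.24 ± 0.17 SE, and *Snrnp25* by -0.27 ± 0.20 SE.

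The kidney also takes up free hemoglobin and heme, so the genes of clearance and iron handling were read beside the globins. Of 13 clearance genes 11 were tested and 0 were called, at a median of 0.10. *Lrp1*, a receptor for heme bound to hemopexin, differed by 0.67 ± 0.53 SE, haptoglobin (*Hp*), which binds hemoglobin, by -0.59 ± 0.58 SE and hemopexin (*Hpx*) by 0.48 ± 0.29 SE.

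Of 15 iron genes, all tested, 11 had a log2 difference above 0 and 4 below 0, 0 were called and the median was 0.17. The ferroxidase ceruloplasmin (*Cp*) differed by 0.76 ± 0.53 SE, *Ncoa4*, the receptor that sends ferritin for breakdown, by 0.55 ± 0.31 SE and the importer *Slc39a14* by 0.55 ± 0.25 SE. *Cp* was at 61.8 FPKM in rFGF4-treated mouse 1 and at 8.89 to 29.2 FPKM in the other 7 mice.

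Erythropoietin, the kidney hormone that drives red cell production, was at 1.64, 1.40, 0.446 and 1.24 FPKM under rFGF4 and at 1.09, 1.14, 0.847 and 1.51 FPKM under vehicle. The groups overlapped throughout, and the log2 difference of *Epo* was -0.004 ± 0.20 SE. Its receptor *Epor* differed by -0.16 ± 0.20 SE and *Jak2*, which signals from that receptor, by 0.03 ± 0.24 SE. Of 4 genes in this list 3 were tested and 0 were called.

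Over all 15 lists, which named 158 genes, 106 were tested, 0 passed the study's threshold and 3 had an unadjusted p under 0.05, *Dmtn* and *Tek* among them. The count of calls rose to 5 without rFGF4-treated mouse 5 (*Itgb3*, *Ncoa4*, *Slc39a14* and *Slc4a1* among them), where 580 of all 15150 tested genes were called. It was 1 or 0 without any other single mouse. The single calls included *Slc48a1* without rFGF4-treated mouse 2, and *Ppbp*, *Slc39a14* and *Tfrc* without vehicle-treated mice 2, 3 and 4. Leaving out rFGF4-treated mouse 3 or vehicle-treated mouse 5 also gave 1 call each.

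**Figure D3:**
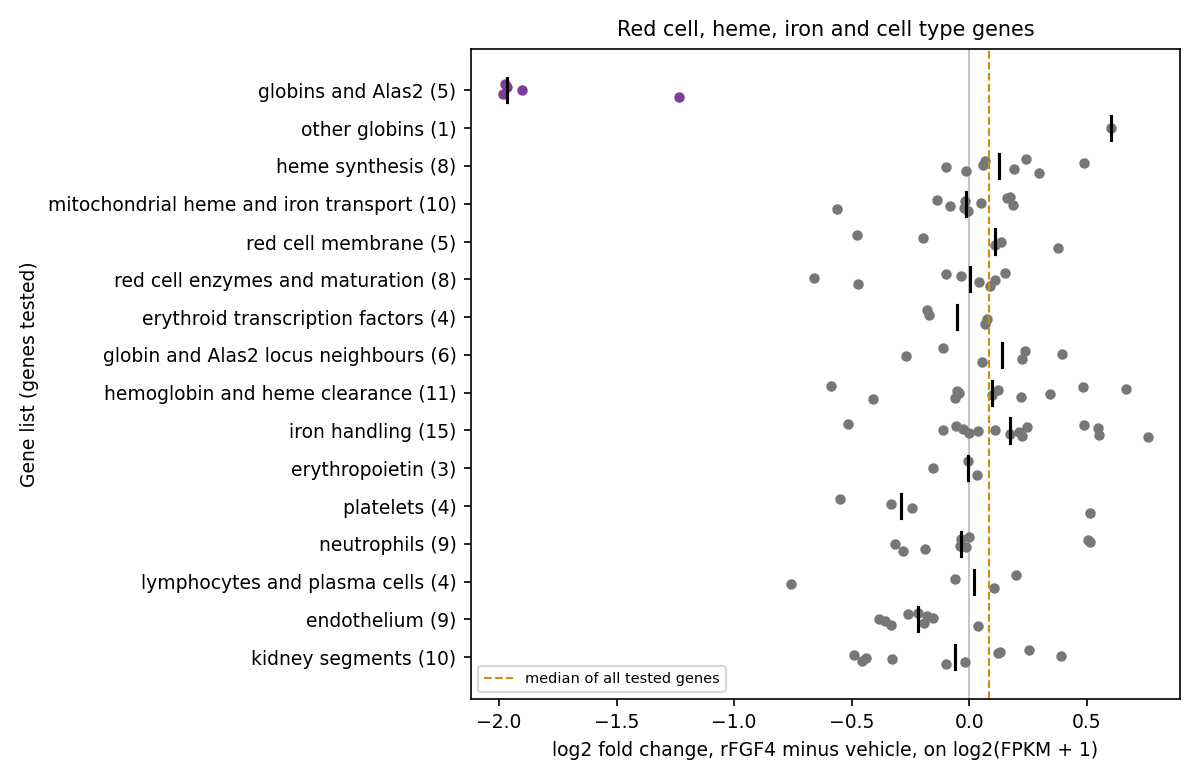
Log2 difference (rFGF4 minus vehicle, on log2(FPKM + 1)) of each tested gene, 1 row per list, with black bars at list medians, the number of tested genes in brackets and a dashed line at the median of all tested genes (0.09). The 4 globins lie between -1.98 and -1.90 and *Alas2* at -1.23, while the other red cell, heme and iron genes all lie to the right of *Alas2*.

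The levels of markers of other blood cells overlapped between the groups, and their part in the globin difference was not tested. Summed over their marker lists, platelets (3 of 5 markers tested, *Gp1ba* never over 0.5 FPKM) were at 2.30 to 7.50 FPKM under rFGF4 and 2.43 to 12.6 FPKM under vehicle. Neutrophils (4 of 5 tested) were at 21.8 to 283 and 3.02 to 385 FPKM. Lymphocytes and plasma cells (3 of 5 tested) were at 77.0 to 2741 and 25.4 to 23333 FPKM, the highest sum being that of vehicle-treated mouse 5.

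The erythroid markers themselves, 7 of 12 tested, summed to 124 to 2670 FPKM under rFGF4 and 1145 to 4333 FPKM under vehicle, nearly all of it globin. *Ank1* and *Gata1* never reached 0.5 FPKM in any library. Endothelial markers (8 of 8 tested) summed to 58.0 to 99.5 and 77.3 to 115 FPKM, and kidney segment markers (10 of 10) to 1268 to 2485 and 1633 to 2307 FPKM, so the kidney label held.

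By single genes, the platelet list (4 tested) had a median of -0.29, with *Pf4* at -0.55 ± 0.61 SE, *Ppbp* at -0.33 ± 0.37 SE and the integrin *Itgb3* at 0.51 ± 0.35 SE. The neutrophil list (9 tested) had a median of -0.04, with the granule genes *Ltf* and *Ngp* at 0.51 ± 1.44 SE and 0.51 ± 0.96 SE and *Retnlg* at -0.31 ± 0.90 SE. In the lymphocyte list (4 tested, median 0.02) *Cd79a* was at -0.76 ± 1.03 SE, *Igkc* at 0.20 ± 2.14 SE and *Jchain* at 0.11 ± 1.86 SE. None of these genes passed the threshold.

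Of 9 endothelial genes 8 had a log2 difference below 0, with a median of -0.22. The angiopoietin receptor *Tek* was at -0.38 ± 0.16 SE (limma, unadjusted p = 0.0424, adjusted p = 0.918), *Tie1* at -0.36 ± 0.18 SE and *Plvap* at -0.33 ± 0.23 SE. Kidney segment genes (10 tested) had a median of -0.06, with the proximal tubule transporter *Slc34a1* at -0.49 ± 0.52 SE, the distal tubule protein *Calb1* at -0.46 ± 0.47 SE and the loop transporter *Slc12a1* at -0.44 ± 0.40 SE.

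The relation of the globins to measures of the libraries was read over the 8 mice as a description. The mean log2(FPKM + 1) of the 5 genes had r = 0.890 with the summed FPKM of the library (Spearman's rho 0.810), which was 389407 to 529835 under rFGF4 and 481321 to 552604 under vehicle. It had r = 0.813 (rho 0.762) with the share of mitochondrially encoded transcripts, which was 27.4% ± 7.25 and 33.5% ± 6.33 of the summed FPKM (SD, n = 4 each). Without rFGF4-treated mouse 1, the lowest in all these measures, r was 0.772 and 0.640.

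With list means on the log2 scale, r was 0.822 for kidney segments, 0.410 for endothelium, 0.0762 for erythroid transcription factors, -0.287 for platelets, -0.306 for neutrophils and -0.357 for lymphocytes. Lists that ran against the globins were iron handling (r = -0.851), the locus neighbours (-0.829), the other globins (-0.744, *Cygb* alone) and clearance (-0.593). The list means are given on the deposited scale only. With the median-ratio scaling r of single iron genes moved, from -0.903 to 0.0108 for *Ireb2* but from -0.812 to -0.840 for *Cp*. Without rFGF4-treated mouse 1 the value for kidney segments was 0.417, for erythroid transcription factors 0.582, for iron handling -0.534, for the locus neighbours -0.630, for the other globins -0.558 and for clearance -0.545. For the blood cell lists it was 0.0023 for platelets, 0.138 for neutrophils and -0.204 for lymphocytes without that mouse, so the negative values of platelets and neutrophils rested on it, and the value for endothelium was 0.339. The part of library make-up in the globin difference was not tested. Scaled to a common median ratio the log2 difference of *Hba-a1* was -2.10, and with the nuclear genes other than globins set to an equal sum it was -1.89, beside -1.97 as deposited.

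The genes with the closest pattern across the 8 mice were picked by Pearson's r with the mean of the 5 genes, out of 15145 others. The first 8 were *Ndufs7* (r = 0.991), *Ndufc1* (0.979), *Ndufs3* (0.976), *Atp5o* (0.975), *Cox6c* (0.974), *Nxph4* (0.971), *Ybx2* (0.970) and *Cox7b* (0.968). Of these, 6 encode subunits of the mitochondrial respiratory chain or ATP synthase from nuclear genes. Their range was far narrower than that of the globins, with *Ndufs7* between 44.4 and 63.8 FPKM over all mice and a log2 difference of -0.17 ± 0.13 SE.

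With that scaling to a median ratio, r of these 8 genes was 0.953 to 0.978, and without rFGF4-treated mouse 1 it was 0.924 to 0.978. On the deposited scale 89 genes had r above 0.9 and 291 below -0.9, and the median r was -0.46. Many other genes thus moved with or against the globins from mouse to mouse on that scale. With the median-ratio scaling r of *Tmem14c* went from -0.295 to 0.744, while that of *Trf* went from -0.873 to -0.909. *Slc4a1*, the red cell membrane gene above, stood at rank 405 (r = 0.787).

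**Figure D4:**
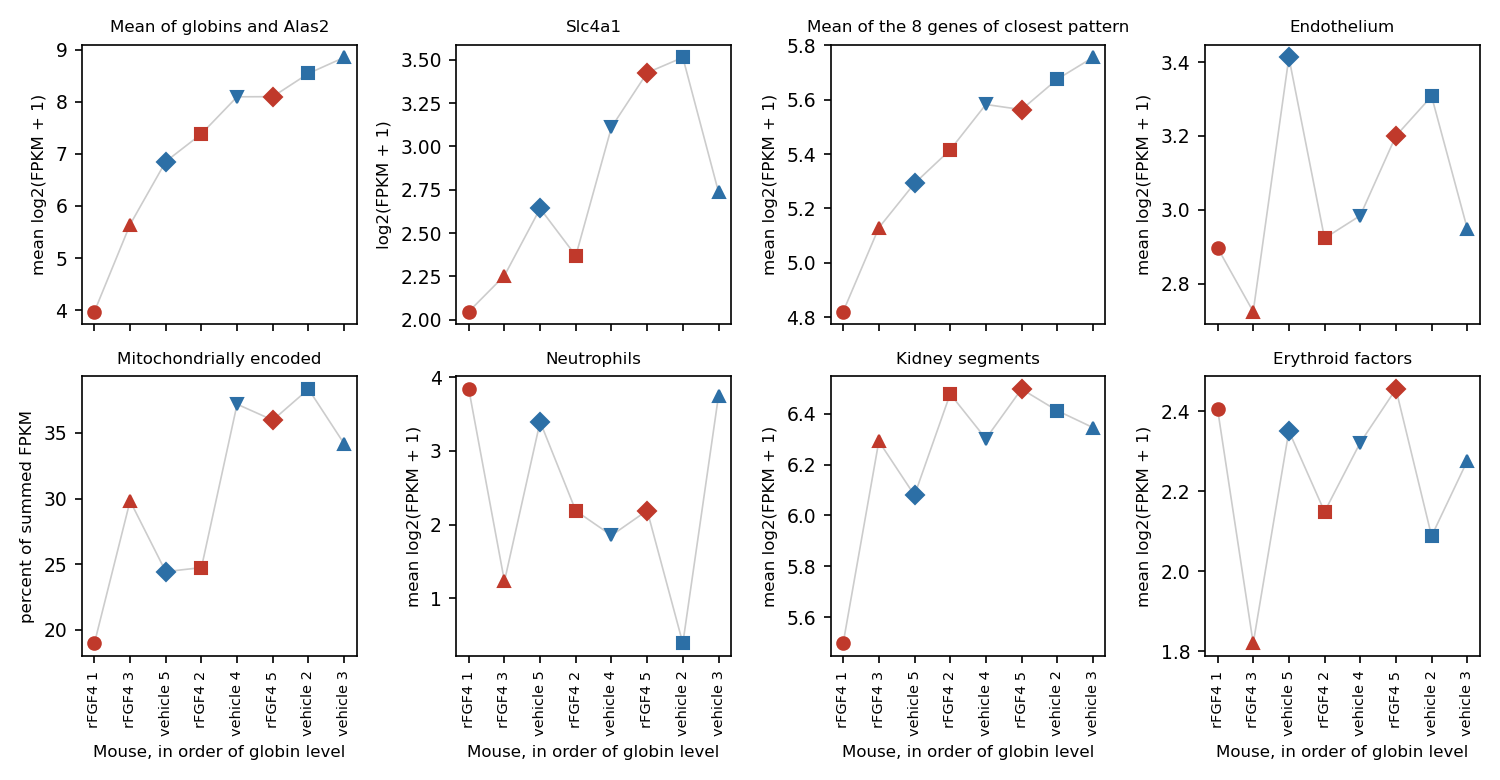
Levels in each mouse, ordered from the lowest to the highest mean of the 5 genes, as log2(FPKM + 1) or its mean over a list, and for mitochondrially encoded transcripts as percent of summed FPKM; rFGF4-treated mice in red, vehicle-treated mice in blue, each axis with its own range. The 8 genes of closest pattern climb along the order. Neutrophil genes (r = -0.306, but 0.138 without rFGF4-treated mouse 1) and erythroid factor genes (r = 0.0762, but 0.582 without that mouse) follow it less closely.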

How the data were processed

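Kidney RNA of 8 diabetic mice, 4 per treatment, was analysed from the FPKM table that the authors deposited. By the paper, transcripts were assembled with StringTie, merged with gffcompare and given as FPKM per gene. The submitters' processing notes name the build mm8, HISAT2 2.0, Bowtie 0.12.2 and StringTie 1.3.0, without their roles, yet 99.5% of the identifiers are in GENCODE M21 on GRCm38. The table holds no counts, so the number of fragments behind a value and its counting error are unknown. The deposited fold change, log2 fold change, p-value and q-value columns of the authors' edgeR comparison were not used. A value of 0.0001 was read as 0.

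Genes at 0.5 FPKM or more in at least 4 libraries were compared as log2(FPKM + 1) with limma 3.58.1 (trend) in R 4.3.3, with Benjamini-Hochberg adjustment over 15150 genes, since no counts were given. The fit was tested on simulated data. Ratios (pseudocount 0.01 FPKM) were compared by exact permutation over 70 arrangements. The 5 genes and the 15 lists were chosen with earlier results of these data known. Named genes are the 5, then, of each list, those past the threshold or else up to 3 with the largest absolute difference, and the 8 of closest pattern; a few list genes that the rule names are not reported here. Alternatives were a pseudocount of 0.1 (1 in the ratios), no filter, a scaling to a common median ratio, a replicate block and each mouse left out. Scaling of nuclear genes for the calls and leaving out 2 mice together were chosen after seeing the data. Promoters and gene positions came from RefSeq, and figures were drawn with matplotlib 3.10.9.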

Additional observations from a re-analysis of the deposited data

Results flagged for a closer look

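Of 152 groups of 4 mice examined, 7 had 1 mouse far from the other 3 by Dixon's test, and chance flags about 1 in 20 groups, or 7.6 here. The value given is the gap of that mouse as a share of the range of its group. The ratio of *Hba-a1* to *Hba-a2* was high in rFGF4-treated mouse 1 (0.921), the mouse with the least globin RNA. In the rFGF4 group, *Zfpm1* was high in mouse 2 (0.872), *Slc39a14* low in mouse 5 (0.883), *Ltf* low in mouse 3 (0.855) and *Tie1* high in mouse 5 (0.903). In the vehicle group, mouse 5 was low in the mean of the heme synthesis genes (0.957). It was high in the mean of the genes listed as neighbours of the alpha globin and *Alas2* loci (0.847). None of the 5 globin and *Alas2* genes had such a mouse in either group.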

How the results depend on the processing

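The log2 differences of the 5 genes stayed below 0 in every alternative run. With single mice left out they ran from -2.63 to -1.16 for *Hba-a1*, -2.63 to -1.13 for *Hba-a2*, -2.53 to -1.09 for *Hbb-bs*, -2.64 to -1.13 for *Hbb-bt* and -1.67 to -0.71 for *Alas2*. Without rFGF4-treated mouse 1 and vehicle-treated mouse 5 together, *Hba-a1* was at -1.56. The genes past the study's threshold, 232 in all with 165 higher, became 451 and 387 with nuclear genes scaled, 249 were higher with a pseudocount of 0.1 and 93 with the median-ratio scaling. Leaving out single mice gave 188 to 580 genes, 127 to 419 higher and 51 to 161 lower, with 580 without rFGF4-treated mouse 5 and 434 without vehicle-treated mouse 5. The nuclear scaling moved the median of all genes to 0.19. List genes past the threshold, 0 in the analysis reported, were 2 with nuclear genes scaled (*Slc39a14* among them), 2 without both mice (*Lrp1* among them) and 0 to 5 without single mice. The cause of these shifts was not tested. The log2 difference of the *Hba-a1* to *Hba-a2* ratio ran from -0.0268 to 0.000401 without single mice, turning sign without vehicle-treated mouse 5. With a pseudocount of 1 FPKM in the ratios, that of *Alas2* to globin went from 0.18 to 0.73 and the exact permutation p from 0.371 to 0.0571, adjusted 0.229. A pseudocount above the level of *Alas2* in the lowest mouse raises this ratio most where *Alas2* is lowest.

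The labels do not say that mouse numbers shared between the groups pair the samples, and these were not treated as pairs. Same-numbered mice deviated against each other (r = -0.229, -0.155 and -0.393 for numbers 2, 3 and 5), which cannot show how the mice were handled. With a replicate block on those numbers, 263 genes passed the threshold and the log2 differences were -1.15 for *Hba-a1*, -1.13 for *Hba-a2*, -1.09 for *Hbb-bs*, -1.11 for *Hbb-bt* and -0.72 for *Alas2*. These differences rest on numbers 2, 3 and 5 alone, since rFGF4-treated mouse 1 and vehicle-treated mouse 4 have no same-numbered partner. *Hba-a1* was at 401, 116 and 714 FPKM in rFGF4-treated mice 2, 3 and 5. In vehicle-treated mice 2, 3 and 5 it was at 1045, 1117 and 315 FPKM.

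List genes that turned sign in an alternative had passed no threshold. With the replicate block *Cygb* was at -0.21, *Slc34a1* at 0.21, *Jak2* at -0.21, *Calb1* at 0.18, *Ngp* at -0.68, *Lmo2* at -0.26, *Klf1* at 0.20, *Jchain* at -1.62 and *Igkc* at -2.01. With the median-ratio scaling *Jak2* was at -0.073 and *Lmo2* at -0.031, and with nuclear genes scaled *Epo* was at 0.041. Without both mice *Cd79a* was at 0.060, *Ngp* at -0.49, *Lmo2* at -0.32, *Klf1* at 0.033 and *Gypc* at 0.078. Without single mice the ranges were -1.24 to 0.38 for *Cd79a*, -0.73 to 0.065 for *Slc34a1*, -0.97 to 0.30 for *Retnlg*, -0.15 to 0.25 for *Jak2*, -0.75 to 0.018 for *Calb1*, -0.11 to 0.18 for *Epo*, -0.41 to 1.10 for *Ngp*, -0.52 to 1.68 for *Ltf*, -0.26 to 0.39 for *Lmo2*, -0.026 to 0.49 for *Alas1*, -0.44 to 0.056 for *Klf1*, -0.92 to 1.79 for *Jchain*, -1.23 to 2.07 for *Igkc* and -0.35 to 0.13 for *Gypc*.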
